A study of Mus musculus with 4 samples.

Results

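Amino acid catabolism and taurine synthesis in mouse liver were examined through 35 enzymes chosen by name. They were read from every probe set, the group of short probes that reports a transcript, whose only gene symbol in the platform annotation was among the 35. Of these, 34 genes had at least 1 such probe set, 43 in all, out of 12393 named genes and 22626 probe sets on the array; Sds was matched to none. For 32 of the 34 at least 1 probe set was bright enough to test, and Kynu and Mccc2 were too dim. RNA came from the livers of adult male C57BL6 mice, killed 6 days after injection of an adenovirus that carried GFP (green fluorescent protein), used as control, or lipin 1 of the mouse in its beta form. Every mouse in the comparison had therefore received a virus, and the labels name neither the promoter in the vector nor the cells it reached. Each group holds 2 arrays, numbered 1 and 2 by their titles. Lipin 2 is labelled polyA RNA and the other 3 arrays total RNA. Whether 2 arrays of a group stand for different animals is not stated, so p-values speak only for these samples, whose spread may be technical. The test used, limma, takes most of a gene's spread from the trend over all tested probe sets. Its p-values and standard errors (SE) are therefore not the replicate spread of that gene alone.

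The liver is the main site where surplus amino acids are broken down. Transaminases move the amino group to glutamate, from which glutamate dehydrogenase releases ammonia for the urea cycle, and dedicated pathways degrade the carbon skeletons of tyrosine, tryptophan, histidine, lysine, proline and the branched-chain amino acids. Methionine follows a different route: it is turned into S-adenosylmethionine, the methyl donor of the cell, and then into homocysteine. Homocysteine is either methylated back to methionine or passed through cystathionine to cysteine, from which taurine, the partner of bile acids in their conjugates, is made. Lipin 1 is a phosphatidate phosphatase that also acts as a transcriptional coactivator of fatty acid oxidation genes.

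Signals are in the arbitrary units of MAS5, the array maker's summary of a probe set, and were on a common scale, with a 2% trimmed mean of 1501 on every array. GFP 2 stood apart from the rest, correlating with the others at 0.731 on average, where the rest reached 0.781 to 0.793. The actin control probes, read near the 3' end over the 5' end as a gauge of RNA integrity, gave 4.22 in GFP 2 and 1.77 to 2.86 in the rest. Lpin1 did not separate the groups: its brighter probe set gave 7082 and 4632 in GFP 1 and 2, and 3854 and 11087 in the arrays labelled lipin 1 and 2. The log2 difference, lipin minus GFP, was 0.19 ± 0.45 (limma SE with 2 arrays per group; limma adjusted p = 0.977). Its dimmer probe set gave 2730 and 1430 against 2261 and 6719, a log2 difference of 0.98 ± 0.53. Directions below therefore rest on the labels. Of 6 hepatocyte markers, Alb among them, 5 were measured and tested, and the groups overlapped in all 5. Their summed signal was 1727000 and 3758000 in GFP 1 and 2, and 2411000 and 2796000 in lipin 1 and 2. Both B cell markers tested, 2 in number, lay lower in the arrays labelled lipin without overlap, as 16.0% of all 8493 tested genes did. Their summed signal was 1002 and 682 against 1651 and 2036. Of 2 tested T and NK cell markers 1 lay lower without overlap, and of 6 macrophage markers 1 lay higher. Neutrophil and stellate cell markers, 2 tested in each list, all overlapped, with median log2 differences of -0.70 and -0.77. The part of these cells in the results below was not tested. In whole tissue, fewer cells of a type and less RNA per cell cannot be told apart.

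The enzymes of taurine synthesis lay on opposite sides of the comparison, and neither overlapped between the groups. Of all 8493 tested genes, 17.3% had no overlap on the higher side and 16.0% on the lower side. Csad, cysteine sulfinic acid decarboxylase, which makes hypotaurine, the precursor of taurine, had the largest difference of all 32 tested genes, and Cdo1, cysteine dioxygenase, which supplies its substrate, had the second largest on the higher side. Neither passed correction over all probe sets: limma called 0 of 13576 probe sets at an adjusted p under 0.05 (0%), and 596 had an unadjusted p under 0.05 (4.39%). The smallest two-sided p that an exact permutation test of 1 gene can give in this design is 0.333.

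Csad was read by a single probe set, with signals of 29478 and 30700 in GFP 1 and 2, and of 17205 and 7994 in lipin 1 and 2. Both arrays labelled lipin lay below both GFP arrays, which were close to each other, and lipin 2 was the lowest. The group means were 30090 ± 865 and 12600 ± 6513 (SD, n = 2 each). The log2 difference was -1.36 ± 0.37 (SE; limma adjusted p = 0.962), or 2.57-fold lower, and 5.15% of the 8493 tested genes had a value as low or lower. It was -0.81 without lipin 2 and -1.91 without lipin 1. The name of the probe set ends in _a_at, a type that can match several transcripts of the same gene. RefSeq (GRCm38.p6) lists 2 starts for Csad, and where the probes lie relative to them is not known here. The 250 bases before each start are printed 5′ to 3′ because Csad is the gene of largest difference, the first from chr15:102205053-102205302 and the second from chr15:102189044-102189293, both on the minus strand. Capitals would mark AGGTCA, the half-site bound by many nuclear receptors, on either strand, and neither window holds it.
Csad start 1: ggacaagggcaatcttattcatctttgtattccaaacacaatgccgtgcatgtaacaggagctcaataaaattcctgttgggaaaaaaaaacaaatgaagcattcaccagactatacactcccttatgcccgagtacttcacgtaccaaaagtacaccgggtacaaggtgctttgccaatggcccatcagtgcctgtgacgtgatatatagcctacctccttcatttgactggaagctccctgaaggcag
Csad start 2: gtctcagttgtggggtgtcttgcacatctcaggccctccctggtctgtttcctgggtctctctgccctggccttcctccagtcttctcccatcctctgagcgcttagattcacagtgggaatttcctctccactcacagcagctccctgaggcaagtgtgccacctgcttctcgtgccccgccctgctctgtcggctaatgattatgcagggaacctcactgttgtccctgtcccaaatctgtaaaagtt

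Cdo1 gave 8276 and 11980 in GFP 1 and 2, and 14729 and 20117 in lipin 1 and 2. Both arrays labelled lipin lay above both GFP arrays. The means were 10130 ± 2619 and 17420 ± 3810 (SD, n = 2 each). On the log2 scale Cdo1 differed by 0.79 ± 0.33 (SE; limma adjusted p = 0.962), or by 0.52 without GFP 1. Of 5 other listed genes around taurine, 3 were tested and 0 passed. Suox, sulfite oxidase, which clears the sulfite formed when cysteine sulfinate is transaminated instead, gave 2726 and 2092 against 3860 and 4201, a log2 difference of 0.75 ± 0.40. Slc6a6, the taurine transporter, gave 3968 and 8317 against 2907 and 3422, a log2 difference of -0.87 ± 0.41, and -0.33 without GFP 2. The arrays did not overlap for either gene. Suox lay on the higher side, as 17.3% of all tested genes did, and Slc6a6 on the lower side, as 16.0% did. Baat, the remaining tested gene, which joins taurine to bile acids, gave 4143 and 4216 against 4158 and 5829 on its brighter probe set. Its groups overlapped, with a log2 difference of 0.24 ± 0.37.

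**Figure D1:**
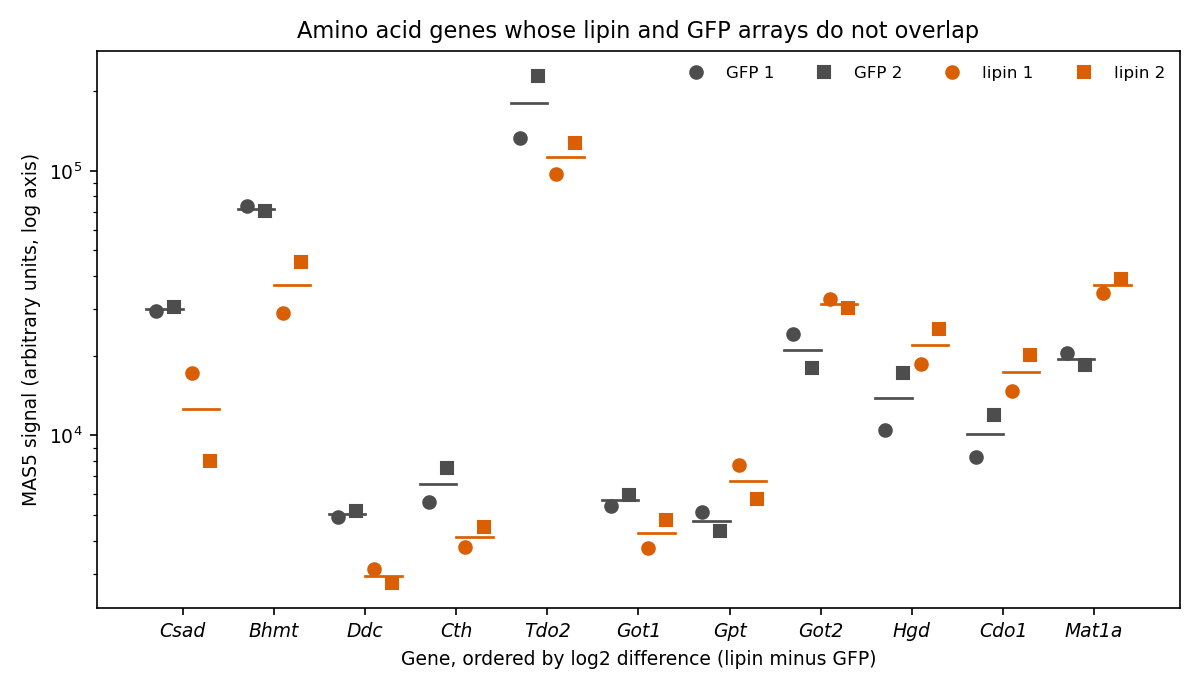
MAS5 signals (log axis, arbitrary units) of the 11 tested genes of the set whose arrays do not overlap between groups; grey marks are the GFP arrays, orange marks those labelled lipin, circles replicate 1, squares replicate 2, and lines the group means. Csad lies at 29478 and 30700 in the GFP arrays against 17205 and 7994, and Mat1a at 20465 and 18504 against 34581 and 39159.

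Groups that do not overlap were about as common among the 32 tested genes as among all genes. On the higher side, 5 of the 32 (15.6%) had no overlap, against 17.3% of all 8493 tested genes, and on the lower side 6 (18.8%), against 16.0%. Both directions together made 11 of the 32, where 33.3% of all tested genes had no overlap. The higher ones were Mat1a, Cdo1, Hgd, Got2 and Gpt, and the lower ones Csad, Bhmt, Ddc, Cth, Tdo2 and Got1. At an unadjusted p under 0.05, 2 of the 32 were higher (2.66% of all tested genes) and 2 lower (1.97%), 4 in all (4.63%), and 0 passed the adjusted threshold in either direction (limma). The median log2 difference over the 32 genes was 0.15, beside 0.0015 over all tested genes, with 20 above 0 and 12 below. It was -0.20 without GFP 1 and -0.12 without lipin 2, against 0.36 without GFP 2. The plot of differences by pathway shows that no pathway with over 4 tested genes lay on 1 side throughout.

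**Figure D2:**
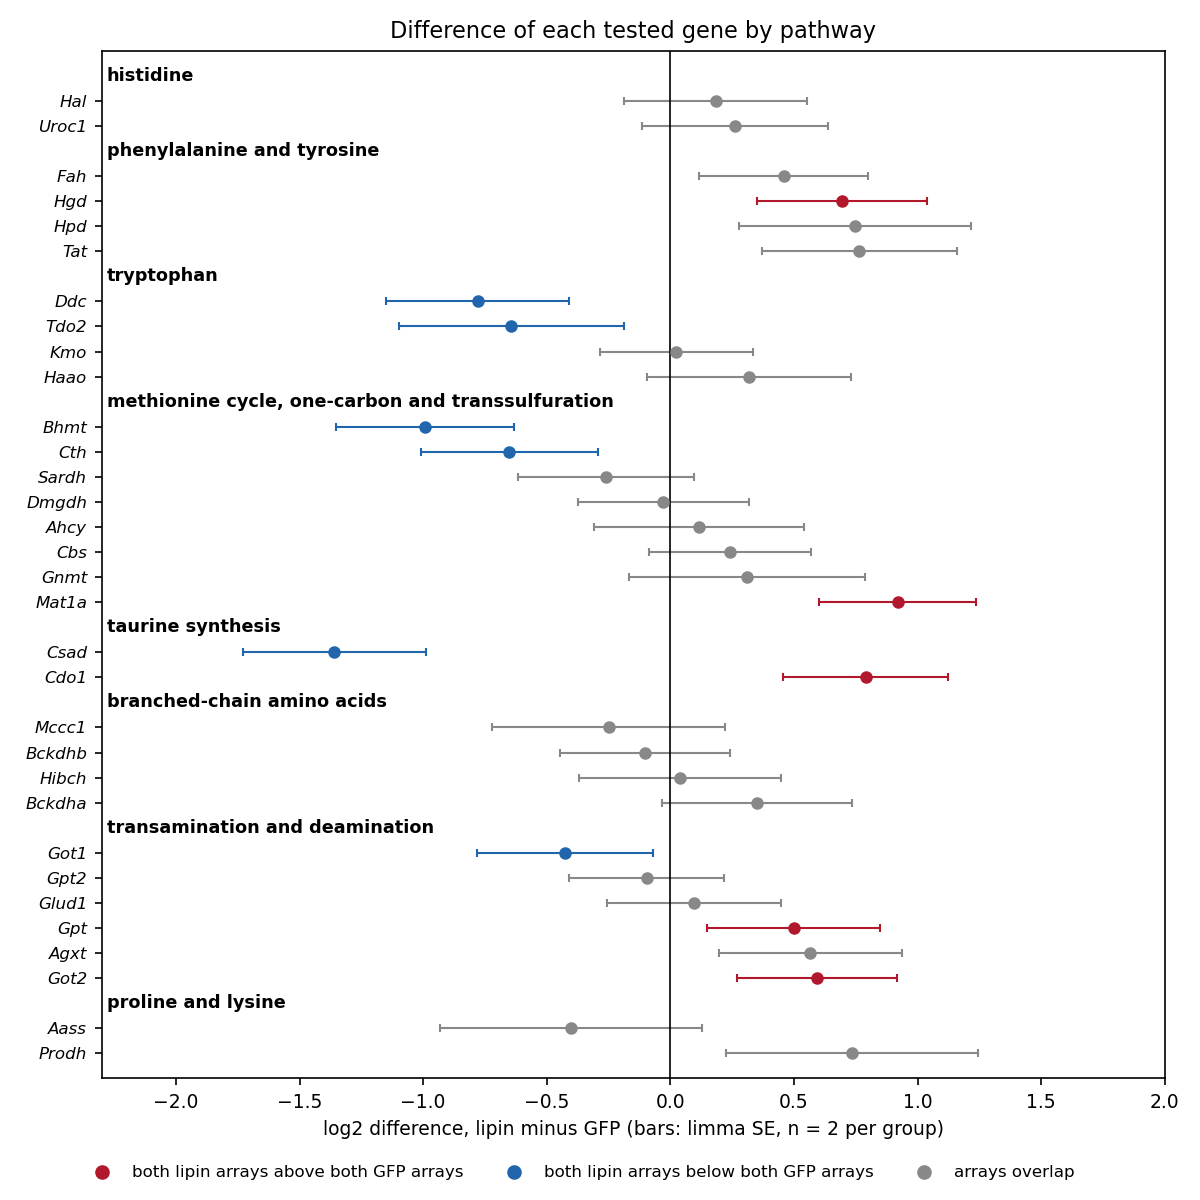
Log2 difference, lipin minus GFP, of each of the 32 tested genes by pathway (points; bars are limma standard errors, n = 2 per group), coloured by whether both arrays labelled lipin lie above, below or among the GFP arrays. Values run from -1.36 for Csad to 0.92 for Mat1a, and all 4 tyrosine genes lie above 0.

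The methionine cycle held members on both sides. Mat1a, the liver enzyme that makes S-adenosylmethionine, had the largest difference on the higher side, and Bhmt, which remethylates homocysteine with betaine, the second largest on the lower side. Mat1a gave 20465 and 18504 in GFP 1 and 2, and 34581 and 39159 in lipin 1 and 2. The GFP arrays lay close together, as did the arrays labelled lipin, and the groups did not overlap. The means were 19480 ± 1386 and 36870 ± 3237 (SD, n = 2 each), and the log2 difference was 0.92 ± 0.32 (SE; limma adjusted p = 0.962), or 1.89-fold. It ran from 0.83 without lipin 2 to 1.01 without lipin 1.

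Bhmt gave 73351 and 70578 in GFP 1 and 2, and 28933 and 45202 in lipin 1 and 2. Both arrays labelled lipin lay below, lipin 1 being the lower one. The means were 71960 ± 1961 and 37070 ± 11500 (SD, n = 2 each), and the log2 difference was -0.99 ± 0.36 (SE; limma adjusted p = 0.962), or 1.99-fold lower. The promoter of Bhmt is shown because it holds AGGTCA 3 times, more often than any other window counted for the set. Printed are the 250 bases before its RefSeq start, chr13:93637759-93638008 (GRCm38.p6), minus strand, 5′ to 3′, with the half-sites in capitals. They begin 234, 72 and 47 bases before the start, all on the strand shown. Of 32851 RefSeq windows of this length, 0.131% held 3 or more.
Bhmt start 1: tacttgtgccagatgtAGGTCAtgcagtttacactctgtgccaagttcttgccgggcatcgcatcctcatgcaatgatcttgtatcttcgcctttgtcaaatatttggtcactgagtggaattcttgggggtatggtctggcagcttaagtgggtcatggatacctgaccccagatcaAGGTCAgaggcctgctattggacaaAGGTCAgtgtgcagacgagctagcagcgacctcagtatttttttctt

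Cth, cystathionine gamma-lyase, which releases cysteine in the last step of transsulfuration, gave 5592 and 7530 against 3794 and 4503, a log2 difference of -0.65 ± 0.36 with no overlap. Cbs, which starts transsulfuration by joining homocysteine to serine, gave 12698 and 9814 against 11451 and 15216 on its brighter probe set. Its groups overlapped, with log2 differences of 0.24 ± 0.33 and 0.02 ± 0.40 on the 2 probe sets. The genes that use or pass on methyl groups overlapped too. Gnmt, which methylates glycine and so consumes S-adenosylmethionine, gave 72314 and 154422 against 100326 and 171180, a log2 difference of 0.31 ± 0.48. Ahcy, which splits S-adenosylhomocysteine, differed by 0.12 ± 0.43, and Dmgdh, which oxidises dimethylglycine, by -0.03 ± 0.35. Sardh, sarcosine dehydrogenase, gave -0.26 ± 0.36 with its brighter probe set and 0.47 ± 0.39 with the other, so its probe sets disagreed in sign, and on the other both arrays labelled lipin lay above. Over the 8 genes the median was 0.04, with 4 above 0 and 4 below. Of 13 other genes of the methionine and one-carbon pathways, 10 were tested and 0 passed, with a median of 0.14. As read on the brightest probe sets, Shmt2, the mitochondrial serine hydroxymethyltransferase, had the smallest p among them. Its log2 difference was 0.66 ± 0.41, and 0.41 without lipin 2, and its other tested probe sets ran from 0.0016 to 1.52. Shmt1 gave -0.43 ± 0.49 on its brightest probe set, with overlap. On a dimmer Shmt1 probe set both arrays labelled lipin lay above, at 0.90 ± 0.38, and its remaining ones gave -0.43 and -0.73 with overlap.

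Every tested gene of the tyrosine pathway lay on the higher side, as 50.1% of all tested genes did. Over its 4 genes, all tested, the median was 0.72 on the log2 scale, or 1.65-fold. In 1 of the 4 the groups did not overlap, beside 17.3% of all tested genes on the higher side. None of the 4 passed the test (limma), and 0 of the 4 had an unadjusted p under 0.05. Hgd, homogentisate dioxygenase, gave 10448 and 17172 in GFP 1 and 2, and 18650 and 25218 in lipin 1 and 2. The lower of the arrays labelled lipin stood just above GFP 2. The log2 difference was 0.70 ± 0.34 (SE; limma adjusted p = 0.962), and 0.34 without GFP 1. Its promoter is shown as that of the pathway's non-overlapping gene: the 250 bases before the RefSeq start, chr16:37579903-37580152 (GRCm38.p6), plus strand, 5′ to 3′, with an AGGTCA half-site in capitals that lies on the opposite strand and begins 84 bases before the start.
Hgd start 1: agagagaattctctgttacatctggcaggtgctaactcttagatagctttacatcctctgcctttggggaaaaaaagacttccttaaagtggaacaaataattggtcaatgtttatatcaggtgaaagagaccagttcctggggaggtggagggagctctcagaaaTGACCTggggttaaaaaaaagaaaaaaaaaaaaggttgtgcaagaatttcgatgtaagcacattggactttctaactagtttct

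Tat, tyrosine aminotransferase, which takes the first and rate-limiting step, gave 9474 and 14851 against 13429 and 30201. Lipin 2 alone exceeded both GFP arrays, and the log2 difference of 0.76 ± 0.39 was 0.18 without lipin 2. Hpd, hydroxyphenylpyruvate dioxygenase, the next enzyme, gave 24930 and 69106 against 50872 and 95390, a log2 difference of 0.75 ± 0.47, and 0.01 without GFP 1. Fah, fumarylacetoacetate hydrolase, the last enzyme, gave 9869 and 16733 against 16076 and 19402, a log2 difference of 0.46 ± 0.34, and 0.08 without GFP 1. GFP 1 was the lowest array for all 4 genes and lipin 2 the highest. Without GFP 1 the median of the pathway was 0.21, and without GFP 2 it was 1.07. Of 6 other genes of phenylalanine and tyrosine metabolism, 4 were tested and 0 passed. Gstz1, which isomerises maleylacetoacetate between Hgd and Fah, differed by 0.40 ± 0.32, and Pcbd1, which recycles the cofactor of phenylalanine hydroxylase, by 0.33 ± 0.31, both without overlap on the higher side. Without lipin 2 Gstz1 was at 0.20. On their brightest probe set, Qdpr, which recycles the same cofactor, differed by -0.48 ± 0.49, and Gch1, which starts its synthesis, by 0.06 ± 0.40. Both overlapped there, and the median of the 4 was 0.20. On the dimmer probe sets Qdpr was nearly level, at -0.0086 ± 0.32 with overlap. Gch1 differed there by 0.63 ± 0.39, without overlap on the higher side.

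In the tryptophan pathway the lower values came from its first enzyme and from a decarboxylase outside the main chain. Ddc, aromatic amino acid decarboxylase, which makes amines such as serotonin, gave 4935 and 5181 in GFP 1 and 2, and 3124 and 2780 in lipin 1 and 2. Its groups were each tight and did not overlap. The means were 5058 ± 174 and 2952 ± 244 (SD, n = 2 each), and the log2 difference was -0.78 ± 0.37 (SE; limma adjusted p = 0.962), with a range of -0.86 to -0.69 over the fits that left out an array. Tdo2, tryptophan dioxygenase, which opens the ring in the first step, gave 132680 and 228191 against 97353 and 127492 on its brighter probe set, a log2 difference of -0.64 ± 0.46, and -0.25 without GFP 2. The dimmer Tdo2 probe set gave 69313 and 62641 against 60071 and 78714, a log2 difference of 0.06 ± 0.37 with overlap, so the gene's probe sets disagreed. Kmo, kynurenine monooxygenase, was nearly level, from 14038 to 15231 over the 4 arrays, and differed by 0.02 ± 0.31. Haao, which makes the precursor of quinolinate, differed by 0.32 ± 0.41 with overlap. Kynu, kynureninase, was too dim to test, at 77 and 546 against 57 and 80. Of 6 other genes of the pathway 5 were tested, 0 passed and all overlapped, with 4 below 0.

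Among the transaminases and deaminases, the cytosolic and the mitochondrial aspartate aminotransferases lay on opposite sides. Got2, the mitochondrial enzyme, gave 24140 and 18014 in GFP 1 and 2, and 32734 and 30213 in lipin 1 and 2. The brighter probe set separated the groups, with a log2 difference of 0.59 ± 0.32 (SE; limma adjusted p = 0.962), and 0.38 without GFP 2. The dimmer Got2 probe set overlapped, at 0.06 ± 0.33. Got1, the cytosolic enzyme, gave 5417 and 5973 against 3749 and 4782, a log2 difference of -0.43 ± 0.36, and -0.25 without lipin 1. Gpt, an alanine aminotransferase, gave 5134 and 4342 against 7746 and 5746, a log2 difference of 0.50 ± 0.35 with no overlap, and 0.28 without lipin 1. Gpt2, the other alanine aminotransferase, had 3 tested probe sets at -0.10, 0.27 and 0.71 from the brightest to the dimmest, all with overlap. Agxt, which detoxifies glyoxylate in peroxisomes, differed by 0.57 ± 0.37, and by 0.16 without lipin 2. Glud1, glutamate dehydrogenase, differed by 0.10 ± 0.35 and 0.45 ± 0.38 on its 2 probe sets. The median over the 6 tested genes of 7 was 0.30. Of 13 other genes of this group 6 were tested and 0 passed. Asrgl1, an asparaginase, gave 1361 and 2667 against 364 and 575 on its brightest probe set, or -2.06 ± 0.73 on the log2 scale (limma adjusted p = 0.962). Its other tested probe set overlapped, at 1062 and 919 against 1130 and 134, or -1.35 ± 1.10. The remaining Asrgl1 probe set was too dim to test, at 610.1 and 87.6 against 404.5 and 585.4. Hao1, which oxidises glycolate to glyoxylate, differed by 0.65 ± 0.40, and by 0.28 without GFP 1.

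In the remaining pathways the groups overlapped in every tested gene of the set, as read on its brightest probe set. Branched-chain amino acid genes had a median of -0.03 over 4 tested genes of 5. Bckdha, a subunit of the branched-chain ketoacid dehydrogenase, gave 4252 and 2991 against 5176 and 3991, a log2 difference of 0.35 ± 0.38, while Bckdhb, its partner subunit, differed by -0.10 ± 0.34. Mccc1, a subunit of the carboxylase of leucine breakdown, differed by -0.25 ± 0.47. Its partner Mccc2 was too dim to test, at 523 and 914 in the GFP arrays against 123 and 27, and both arrays labelled lipin lay below. Hibch, of valine breakdown, differed by 0.04 ± 0.41 on its tested probe set, and its dim one gave 238 or less on every array. Among 16 other genes of the pathway 13 were tested and 0 passed. Dbt, the transacylase subunit of the dehydrogenase, gave 5645 and 8077 against 1949 and 4002, differing by -1.27 ± 0.42 on the log2 scale (limma adjusted p = 0.962). Without lipin 1 it was -0.75.

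Both histidine genes overlapped on their brightest probe set. Uroc1, urocanate hydratase, gave 21155 and 43516 against 36163 and 36582 on its brighter probe set, a log2 difference of 0.26 ± 0.37, and 0.82 ± 0.53 on the dimmer one, where the groups did not overlap. Hal, histidine ammonia-lyase, which forms urocanate, differed by 0.18 ± 0.37. Of 3 other histidine genes 2 were tested and 0 passed, with Ftcd, which hands the formimino group to folate, at 0.44 ± 0.32, and at 0.23 without lipin 2. Prodh, proline dehydrogenase, gave 2056 and 7807 against 5325 and 8348, a log2 difference of 0.74 ± 0.51. GFP 1 was far below the other 3 arrays, and without GFP 1 the value was -0.23. Aass, which starts lysine breakdown, gave 3100 and 10510 against 2795 and 6681, a log2 difference of -0.40 ± 0.53, and 0.48 without GFP 2. Of 8 other proline and lysine genes 5 were tested and 0 passed. Aldh4a1, the enzyme after Prodh, gave 2899 and 3731 against 5733 and 6094, with no overlap, and differed by 0.85 ± 0.36 on the log2 scale (limma adjusted p = 0.962).

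Many of these genes differed more between the arrays of a group than between the groups. In 23 of the 32 the larger of the within-group differences exceeded the difference between groups, as in 6787 of all 8493 tested genes. In 21 of the 32, or 65.6%, the array numbered 2 was above the array numbered 1 in both groups, against 27.5% of all tested genes. Among the 1080 other genes with a geometric mean signal at or above 5407, the lower quartile of the set, the share was 33.8%. Above that same level, 15 of 24 genes of the set, 62.5%, were higher on array 2 in both groups. In 5 of the 32, namely Kmo, Bckdha, Got2, Gpt and Glud1, array 2 was lower in both groups. These were 15.6% of the set, against 24.8% of all tested genes. After quantile normalization, an alternative chosen after seeing the data, 20 of the 32 were higher on array 2 in both groups, against 26.9% of all tested genes. The median within-group log2 difference over the 32 genes was 0.55 in the GFP arrays and 0.38 in those labelled lipin, beside 0.13 and -0.05 over all tested genes.

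**Figure D3:**
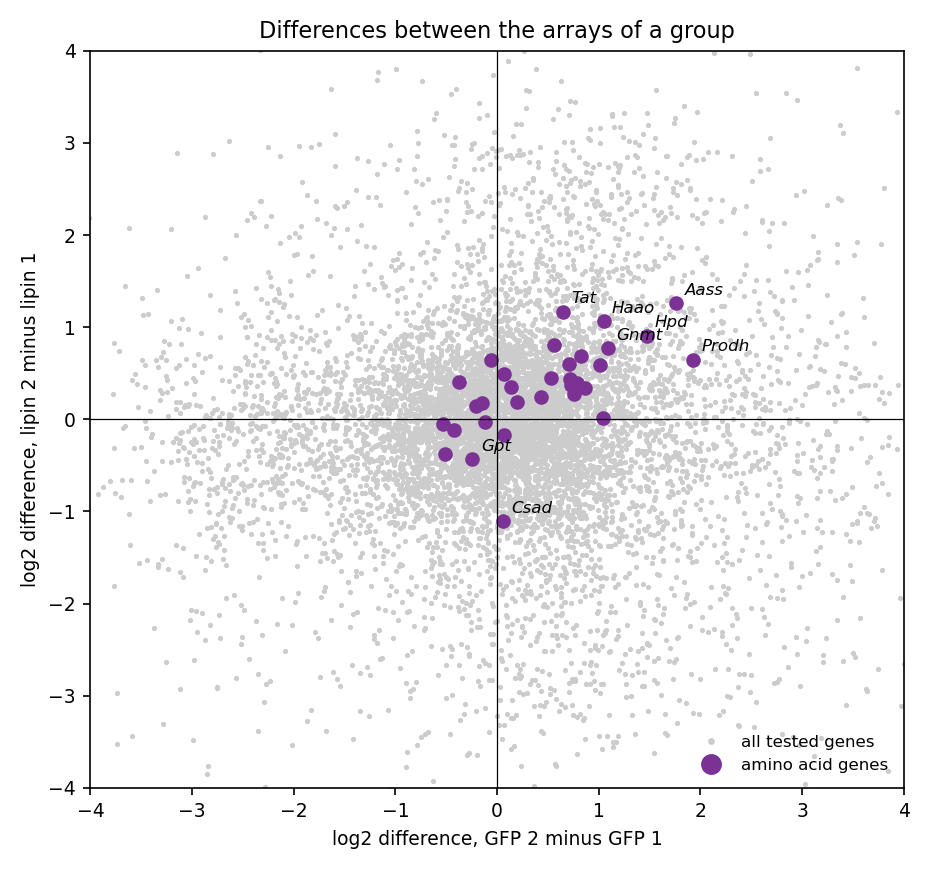
Log2 difference of array 2 minus array 1 in the GFP group (x axis) and in the group labelled lipin (y axis), for 8455 tested genes (grey; 38 lie outside the axes) and the 32 genes of the set (purple). Of the 32, 21 lie at the upper right, where array 2 is above array 1 in both groups, with Aass, Prodh, Hpd and Haao far out and Csad apart at the bottom.

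The genes with the widest within-group differences belonged to several pathways. Prodh differed by 1.93 on the log2 scale between the GFP arrays and by 0.65 between those labelled lipin. Aass differed by 1.76 and 1.26, Hpd by 1.47 and 0.91, Haao by 1.05 and 1.06, and Gnmt by 1.09 and 0.77, each with array 2 higher in both groups. Csad differed by 0.06 between the GFP arrays and by -1.11 between those labelled lipin. Markers of pericentral hepatocytes, those near the central vein, had summed signals of 276800 and 727500 in GFP 1 and 2 and 367800 and 585700 in lipin 1 and 2. Markers of periportal hepatocytes, those near the portal vein and including Hal, summed to 93830 and 157000, and 134100 and 199800. Both sums were thus higher on array 2 within each group, as 21 of the 32 amino acid genes were. The sums of general hepatocyte, endothelial, stellate cell and cholangiocyte markers were also higher on array 2 in both groups. The stellate cell sum rests on 2 tested genes. The cholangiocyte sum rests on 1, at 74.1 in GFP 1, which is under the floor of 119.5. For endothelial cells the sums were 7896 and 13700 in GFP 1 and 2, and 8470 and 10880 in lipin 1 and 2. Macrophage and neutrophil sums were lower on array 2 in both groups. The sums of B cells and of T and NK cells were higher on array 2 only in the GFP group. The part of any cell type in this pattern was not tested. The labels do not say what arrays of the same number share, and lipin 2 differs from lipin 1 in its label of polyA RNA, whose part was not tested either.

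**Figure D4:**
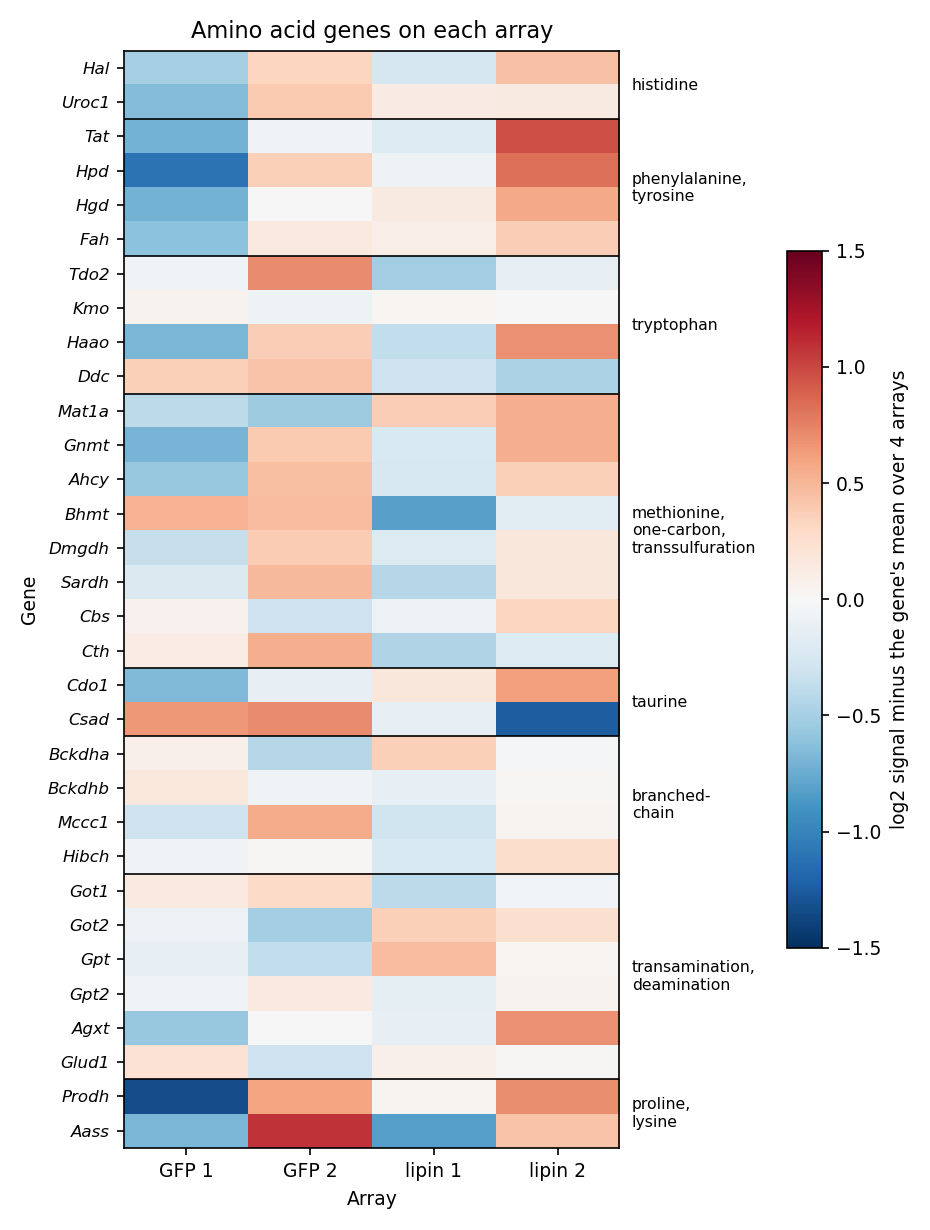
Log2 signal of each of the 32 tested genes on each array, minus the gene's mean over the 4 arrays (colour), grouped by pathway. GFP 1 is the lowest column in the tyrosine and histidine genes and in Prodh. GFP 2 and lipin 2 share high values in many rows, and Mat1a, Bhmt, Ddc and Csad split by group instead.

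The half-site shown in the promoters of Bhmt and Hgd was counted over all windows of 250 bases before a RefSeq start (GRCm38.p6). Entries were found for 29 of the 35 genes, with 32 windows counted between them. Any window of the set on a certain chromosome was left out, though that chromosome was kept in the count over all windows. AGGTCA, on either strand, occurred in 13 of the 32, or 40.6%, against 14.0% of all 32851 windows, which belong to genes of every tissue. The 13 lay at Aass, Ahcy, Bckdhb, Bhmt, Ddc, Gnmt, Got1, Got2, Haao, Hgd, Sardh, Tdo2 and Uroc1, genes found on both sides of 0. The other motifs searched, also on both strands, were CCAAT, in 50.0% of the set's windows against 33.8% of all, TATAAA, in 15.6% against 12.4%, TGTTCT, a glucocorticoid receptor half-site, in 9.38% against 16.1%, TGACG, a cyclic AMP response half-site, in 6.25% against 17.8%, and TGTTTNC, of the FoxA type, in 9.38% against 17.8%. In the printed windows, TGACG and CCAAT each occurred once before the first Csad start and TGTTTNC once before the second. CCAAT also occurred once before the Bhmt start and 2 times before the Hgd start, where TATAAA occurred once. A match describes letters and is neither a binding site nor a cause.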

How the data were processed

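Liver RNA was measured on 4 arrays, 2 per group as titled. The authors deposited linear intensity signals, 1 per probe set, made with MAS5 software, as the submitters' processing notes list; its version and scaling target are not given in sources used here and no detection calls were used, so signal over background is unknown for single probe sets. Signals were used as deposited.

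Of 22690 probe sets, 64 controls were dropped. A floor of 119.5, the 20th percentile of all signals, was set before the log2 step, and the 13576 probe sets at or above the 40th percentile of the mean (8493 genes) were tested with limma 3.58.1 in R 4.3.3 (lmFit, eBayes with intensity trend, 12.7 prior degrees of freedom, two-sided, Benjamini-Hochberg over all probe sets, threshold 0.05). The floor understates differences of dim genes. A gene was represented by its brightest tested probe set. The fit was run on simulated data with changes larger than any in the set and equal noise for all probe sets. That run cannot tell how well differences of the size reported here are recovered.

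Names came from the platform annotation and promoters from RefSeq, with coordinates given only for the printed RefSeq windows (GRCm38.p6) and none for probe sets. The genes and the pathway lists were chosen with earlier results of these data known. Array values are given for Csad, Cdo1, Lpin1, genes with an unadjusted p under 0.05 and the gene of smallest p per pathway; others were picked after their values were seen. Lists are described by counts and medians, without a test. Alternatives covered normalization, floor, filter, variance model, each array left out in turn, a replicate block, and the choice of probe sets.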

Additional observations from a re-analysis of the deposited data

How the results depend on the processing

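With 2 arrays per group, leaving out an array moved most values. The probe sets past the limma threshold numbered 0 to 13 over these fits, the median of the 32 genes ran from -0.20 to 0.36, and the genes whose groups do not overlap numbered 17 to 26, with 6 to 17 higher and 6 to 13 lower, counts that grow because a lone array is easier to separate. Of 128 single-gene values of the set in these fits, 107 kept direction and side and 21 reversed, in 14 genes. The log2 ranges of those genes were Hal -0.23 to 0.60, Uroc1 -0.26 to 0.78, Haao -0.21 to 0.85, Gnmt -0.24 to 0.86, Ahcy -0.39 to 0.62, Prodh -0.23 to 1.70, Kmo -0.035 to 0.082, Dmgdh -0.39 to 0.33, Sardh -0.61 to 0.092, Mccc1 -0.68 to 0.18, Gpt2 -0.20 to 0.0037, Glud1 -0.17 to 0.36, Aass -1.28 to 0.48 and Hibch -0.21 to 0.29, and -0.57 to 0.95 for the brighter Lpin1 probe set. Of 347 values under the other settings 342 kept both. Dmgdh reversed to 0.0015 with median centring, Sardh to 0.10 and Gpt2 to 0.30 when all probe sets of a gene were averaged, and Gpt2 to 0.71 without probe sets ending in _s_at, _x_at or _a_at, a setting that leaves Csad out. With an array left out of the lipin group, and with the block, the fit took the spread of each gene wholly from the trend over intensity.

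The replicate number as a block raised the probe sets past the threshold to 52 (0.383%), with Csad alone of the set among them (limma adjusted p = 0.00706). Deviations of same-numbered arrays correlated at 0.0283 over all tested probe sets and at 0.644 over the 32 genes, but with 2 arrays per group and no label on what a number shares this does not pair the samples.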
